A study of Rattus norvegicus with 9 samples.

Results

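The cluster of miR-532, miR-362 and miR-500 is a row of X-linked miRNA hairpins that lie along the gene Clcn5. Its members were taken by name, as every row of the deposited table called miR-532, miR-362, miR-500, miR-501, miR-502, miR-660 or miR-188, with or without an arm suffix. This gave 10 of the 726 rows of the table, from 5 of the 7 names; miR-502 and miR-660 were not analysed here. The rows carry the rat prefix rno (rno-miR-532-5p, rno-miR-362-5p, rno-miR-362-3p and so on), which is left out below. Small RNA was sequenced from primary wild-type cartilage progenitor cells of rat condylar cartilage in 3 groups of 3 libraries. P9 cells had been cultured to passage 9 (the submitters' replicative senescence group), FFSS cells were passage 3 cells given flow fluid shear stress, and P3 cells were passage 3 controls. Nothing in the labels tells if the 3 libraries of a group are separate cultures or animals; p-values therefore rest on the spread between libraries, and that spread may be technical.

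A miRNA hairpin is cut from a longer transcript, and either of its strands, the 5p or the 3p arm, can be loaded into an Argonaute protein. The loaded arm finds its targets mainly through its seed, bases 2 to 8 from the 5′ end. miRNAs inside a gene are often cut from that gene's own transcript, so hairpins of one host can start from a shared precursor. Clcn5 encodes an exchanger of chloride and protons in endosomes, best known from the kidney, where its human loss causes Dent disease. In mouse bone marrow stromal cells miR-188 is known to favour fat over bone formation with age.

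The hairpins are shown first because the results turn on which arm of which hairpin changed; capitals mark the mature arms listed by RefSeq, and coordinates are those of the build GRCr8, 5′ to 3′ on the plus strand. All 5 lie inside the annotated span of Clcn5, on its strand and between its 2 annotated starts. The submitters' processing notes name the build Rnor_6.0, so these coordinates place the sequences and were not used for any count.
Mir532, chrX:17919185-17919263: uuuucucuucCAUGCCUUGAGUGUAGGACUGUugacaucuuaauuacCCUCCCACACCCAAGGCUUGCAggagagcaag
Mir188, chrX:17919585-17919664: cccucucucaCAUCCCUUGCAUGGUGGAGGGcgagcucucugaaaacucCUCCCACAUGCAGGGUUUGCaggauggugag
Mir362, chrX:17926485-17926549: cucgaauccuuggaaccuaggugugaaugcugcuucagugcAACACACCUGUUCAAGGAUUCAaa
Mir501, chrX:17927189-17927272: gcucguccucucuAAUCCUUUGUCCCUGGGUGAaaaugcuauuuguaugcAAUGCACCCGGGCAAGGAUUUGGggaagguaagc
Mir500, chrX:17930647-17930726: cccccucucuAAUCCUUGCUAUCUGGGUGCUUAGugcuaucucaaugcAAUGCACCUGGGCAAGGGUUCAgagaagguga
RefSeq held a mature entry for 9 of the 10 rows, the exception being miR-362-5p. The hairpins of miR-532 and miR-188 are 321 bases apart, those of miR-362 and miR-501 639 bases, and the whole row runs over 11462 bases from the first hairpin's start to the last one's. The letters AAUCCUU, read on the RNA strand, occur in the miR-362, miR-501 and miR-500 hairpins, 3 of the 5 members. They occur in 5 of all 419 rat hairpins listed (1.19%), these 3 included. The letters were not named in advance, so these counts are a description and not a test.

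Mature arms of members that the results describe are given with the seed in capitals, followed by miR-329-3p and miR-3560, non-members whose sequences bear on them.
miR-532-5p: cAUGCCUUgaguguaggacugu
miR-532-3p: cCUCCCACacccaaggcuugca
miR-362-3p: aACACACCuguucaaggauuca
miR-501-3p: aAUGCACCcgggcaaggauuugg
miR-500-3p: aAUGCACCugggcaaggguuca
miR-329-3p: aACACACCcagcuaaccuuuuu
miR-3560: cAAAUCCUugcccgggugcauu
miR-501-3p and miR-500-3p share the seed AUGCACC and match at 18 of 22 bases. Counted from the 5′ end and with the miR-500-3p base first, they differ at U9C, G18A, C21U and A22G. miR-362-3p has the seed ACACACC, as does miR-329-3p, which lies on chromosome 6 and belongs to no Clcn5 hairpin. The row miR-3560 is annotated on the strand opposite the miR-501 hairpin and is an exact reverse complement of part of miR-501-3p. Its counts equalled those of miR-501-3p in every library, so reads of the 2 strands cannot be told apart here and miR-501-3p is reported as the miR-501-3p/miR-3560 pair. In all, 29 pairs of rows averaging 10 or more counts agreed in every library within 10% or 5 reads, and 27 of them overlap on opposite strands in RefSeq.

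Libraries held 2878910 to 8862560 miRNA reads, and FFSS replicates 1 and 3 were the smallest at 2878910 and 3896403. Cluster rows together took 157 to 637 CPM (read counts scaled to a fixed library total, the scale of all levels below). P9 replicate 3 correlated at 0.956 and 0.963 with the other P9 libraries in log2 CPM, against 0.994 between those 2, and the fold changes of the members in P9 against P3 are also given without it. The cartilage miRNAs miR-140 and miR-455, 4 rows in all, summed to 2590 to 3847 CPM in P9, 6077 to 7202 CPM in FFSS and 4150 to 7370 CPM in P3. With edgeR 0 of these 4 passed in P9 or in FFSS against P3, with 2 and 0 at an unadjusted p under 0.05. In P9 against FFSS 1 of the 4 passed, miR-140-3p, lower in P9 (log2 fold change -1.06, SE 0.27, adjusted p = 0.00953, edgeR). There 3 of the 4 had an unadjusted p under 0.05. A lower level in these bulk samples may be fewer cells that make a miRNA or less of it per cell, which cannot be told apart.

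Within the cluster, miR-532-5p was the main product in each library, with 71.6% to 78.9% of the cluster's reads. Summed over libraries, reads came mostly from the 5p arm of miR-532 (18987 against 1714 on the 3p arm) and of miR-362 (2289 against 458). They came mostly from the 3p arm of miR-501 (1216 against 25 on the 5p arm) and of miR-500 (411 against 29). miR-188 gave 81 reads of the 5p arm and 3 of the 3p arm. In genomic order, the first 3 hairpins (miR-532, miR-188 and miR-362) thus gave mostly the 5p arm and the last 2 (miR-501 and miR-500) mostly the 3p arm. The filter on low counts kept 7 of the 10 rows, leaving out miR-188-3p, miR-500-5p and miR-501-5p.

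Under shear stress, 1 of the 7 tested members fell, miR-362-5p, and none of the other 6 passed the test in either direction. The ratio of the miR-362 arms, which uses the same miR-362-5p reads and so is not a separate result, also changed, with fewer 5p reads per 3p read in FFSS. miR-362-5p had 17.0, 14.97 and 11.3 CPM in the FFSS libraries, against 50.9, 36.3 and 57.9 CPM in the P3 libraries. Every FFSS library lay below every P3 library. The mean was 14.4 ± 2.902 CPM in FFSS and 48.4 ± 11.02 CPM in P3 (SD, n = 3 each), a log2 fold change of -1.76 (SE 0.42, adjusted p = 0.0154, edgeR quasi-likelihood test, Benjamini-Hochberg over 439 miRNAs). Of all 439 miRNAs tested, 20.5% were called in FFSS, 13.7% lower and 6.83% higher, so 1 of 7 lower is near the share over all miRNAs. Of the 7 members, 1 had an unadjusted p under 0.05, a smaller share than the 36.2% of all miRNAs. Also 1 of the 7 did not overlap between groups, a smaller share than the 41.5% of all miRNAs. miR-362-5p did not pass once FFSS replicate 3 was left out (-1.56, adjusted p = 0.0693).

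miR-362-3p had 8.34, 7.62 and 7.70 CPM in FFSS, against 9.87, 2.66 and 12.3 CPM in P3. The FFSS libraries lay close together and inside the wide range of the P3 libraries. Its log2 fold change was -0.09 (SE 0.52, adjusted p = 0.914), and it turned positive with limma-voom and on both log2(TPM) scales.

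The ratio of the arms inside a library does not depend on how libraries are scaled, and it was compared over the 89 hairpins whose arms each averaged 20 or more counts. For miR-362 the 5p arm had 2.02, 1.95 and 1.46 reads per 3p read in FFSS, against 5.13, 13.3 and 4.69 in P3. The 3 FFSS libraries were below the 3 P3 libraries, and P3 replicate 2, with 20 reads of the 3p arm, was the highest. On the log2 scale the ratio was 0.84 ± 0.26 in FFSS and 2.78 ± 0.84 in P3 (SD, n = 3 each), a difference of -1.93 (SE 0.42, adjusted p = 0.0195, limma over the 89 hairpins). Of the 89 hairpins, 4.49% were called for their arm ratio in FFSS, and 28 had an unadjusted p under 0.05 (limma). miR-362 had the third smallest p among the 89. The call was lost without P3 replicate 2 (difference -1.45, adjusted p = 0.0844) and without FFSS replicate 3 (-1.79, adjusted p = 0.1002).

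miR-532, the other member hairpin with enough reads on both arms, had 9.28, 8.65 and 8.94 reads of the 5p arm per 3p read in FFSS, against 8.66, 17.9 and 13.2 in P3. The FFSS values were nearly the same in the 3 libraries and overlapped the lowest P3 library. The log2 difference was -0.50 (SE 0.36, adjusted p = 0.353, limma).

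**Figure D1:**
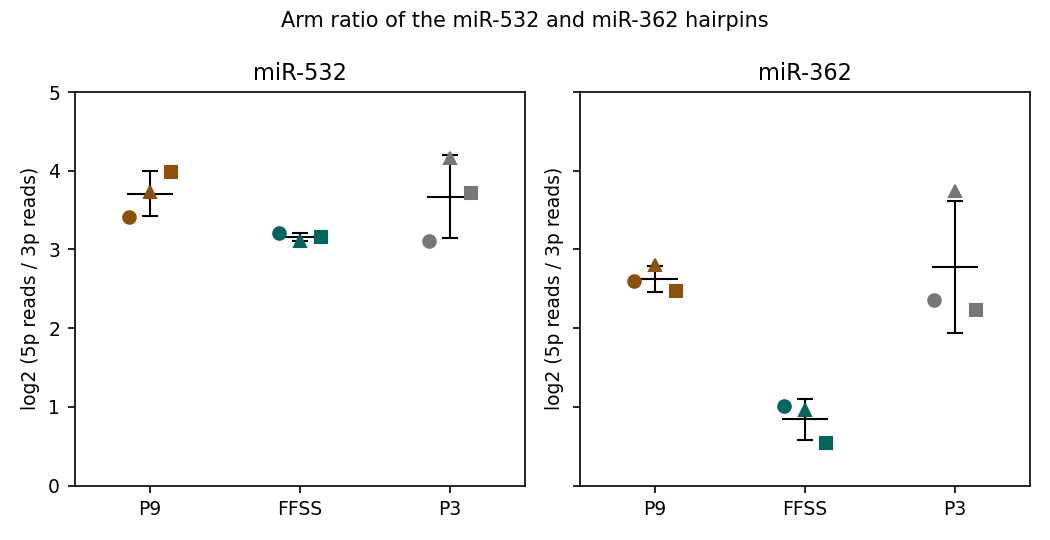
Log2 of the ratio of 5p to 3p reads for the miR-532 and miR-362 hairpins in each library; points are libraries (circle, triangle and square for replicates 1, 2 and 3) and bars are the mean ± SD of 3 libraries. For miR-362 the 3 FFSS libraries lie at 0.55 to 1.01, below the lowest P9 library (2.47) and the lowest P3 library (2.23).

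miR-532-5p, the most abundant member, had 221, 284 and 329 CPM in FFSS, against 402, 225 and 491 CPM in P3. The groups overlapped through P3 replicate 2. Its log2 fold change was -0.47 (SE 0.38, adjusted p = 0.375). miR-532-3p had 23.6, 32.8 and 36.7 CPM in FFSS, against 46.4, 12.5 and 37.1 CPM in P3, again with P3 replicate 2 the lowest library. The fold change was -0.05 (SE 0.48, adjusted p = 0.957), with a sign that changed between settings.

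miR-500-3p, from the last hairpin of the row, was the 1 member with a positive value under shear stress. It had 12.5, 7.06 and 16.9 CPM in FFSS, against 7.49, 3.06 and 9.93 CPM in P3, and the groups overlapped. Its log2 fold change was 0.76 (SE 0.53, adjusted p = 0.304), which did not pass. The miR-501-3p/miR-3560 pair, from the hairpin before it, had 24.7, 11.9 and 18.2 CPM in FFSS, against 32.9, 19.7 and 25.8 CPM in P3. These groups overlapped too, at a fold change of -0.54 (SE 0.35, adjusted p = 0.271). The 2 miRNAs with the shared seed AUGCACC thus had values of opposite sign, and neither change passed the test.

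miR-188-5p was near the limit of detection, with 1, 6 and 8 reads in FFSS, against 16, 4 and 15 reads in P3 (fold change -0.38, SE 0.95, adjusted p = 0.803). Over the 7 tested members the median log2 fold change in FFSS was -0.38, beside 0.02 over all 439 miRNAs. The summed levels of markers of other tissues lay higher in the FFSS than in the P3 libraries. The 8 blood rows summed to 167 to 592 CPM in FFSS, against 75.8 to 157 CPM in P3. With edgeR 1 of 4 tested, miR-142-5p, rose (1.53, SE 0.49, adjusted p = 0.0437), and 3 of the 4 had an unadjusted p under 0.05. The called row was a small part of the sum, with a mean of 14.6 CPM in FFSS and 4.84 CPM in P3. The 10 epithelium rows summed to 34.9 to 89.3 CPM in FFSS, against 30.0 to 31.6 CPM in P3. Of 5 tested, 1 was higher with edgeR, miR-200b-3p (1.53, SE 0.47, adjusted p = 0.0399), and 1 had an unadjusted p under 0.05. The 8 muscle rows summed to 190 to 539 CPM in FFSS, against 141 to 159 CPM in P3, and 0 of 4 tested passed with edgeR, 1 having an unadjusted p under 0.05. No row of these lists was at 0 in all libraries, and their part in the results for the cluster was not tested.

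**Figure D2:**
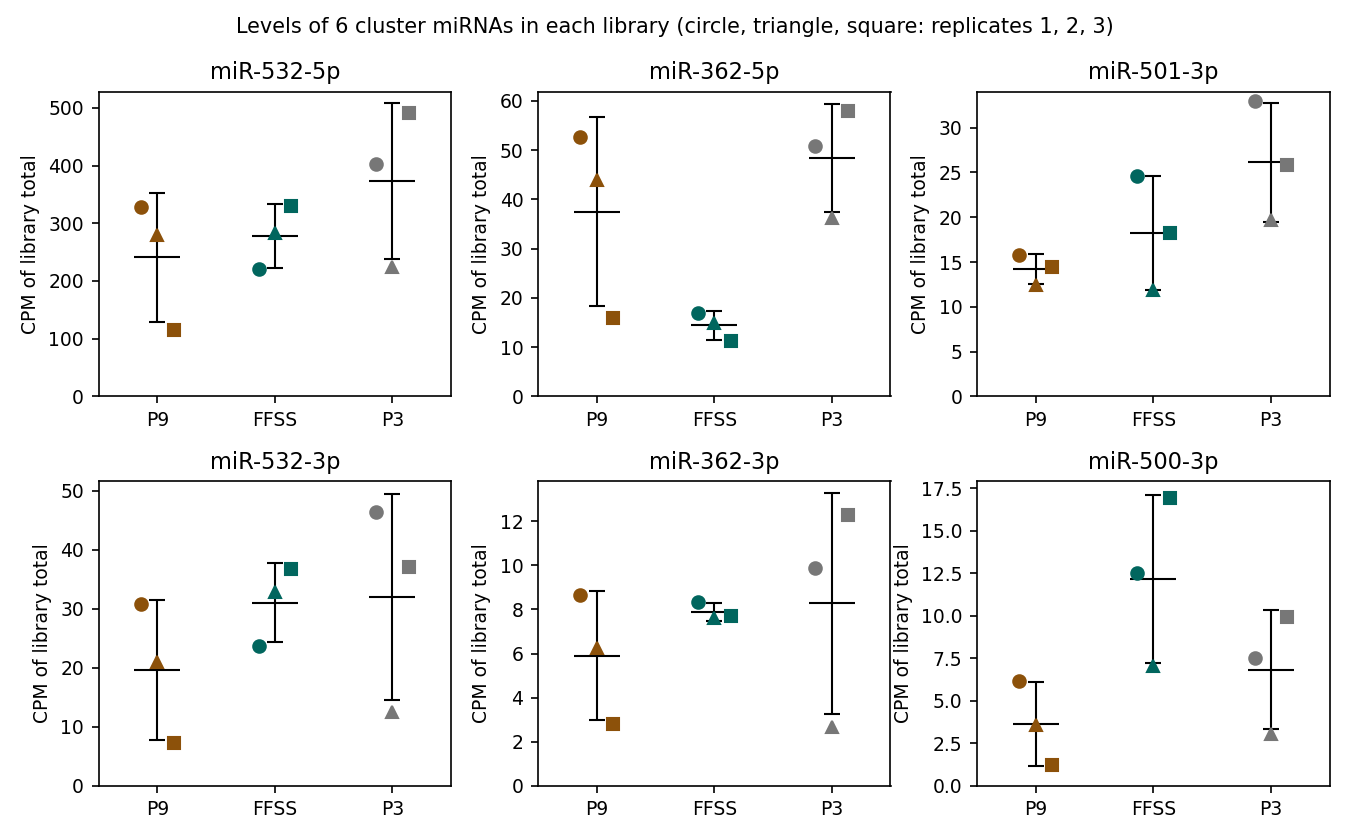
CPM of the library's total for 6 members in each library, with P9 and FFSS left of P3; points are libraries and bars the mean ± SD of 3 libraries, each panel on its own axis from 0. miR-362-5p is at 11.3 to 17.0 CPM in FFSS, below the 36.3 to 57.9 CPM of P3, whereas the other 5 panels show FFSS and P3 overlapping.

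At passage 9, 0 of the 7 tested members passed the edgeR test against P3, and 1 had an unadjusted p under 0.05; DESeq2 and limma-voom called 0 as well. Of all 439 miRNAs, 7.29% were called, 3.87% higher and 3.42% lower, and 17.3% had an unadjusted p under 0.05. Each of the 7 log2 fold changes was negative, between -0.88 and -0.05, with a median of -0.59 beside 0.06 over all miRNAs. Single libraries moved these values, and none passed when any 1 library was left out. Without P9 replicate 3 the fold changes were 0.53 for miR-188-5p, 0.01 for miR-362-5p, -0.13 for miR-362-3p, -0.27 for both miR-532-5p and miR-532-3p, -0.48 for miR-500-3p and -0.86 for miR-501-3p. Without P9 replicate 1 they lay further from 0, at -1.70 for miR-188-5p, -1.38 for miR-500-3p, -1.03 for miR-532-3p, -0.79 for miR-532-5p, -0.73 for miR-362-3p, -0.58 for miR-362-5p and -0.84 for miR-501-3p. The sign of miR-188-5p also turned without P9 replicate 2 (0.22), P3 replicate 1 (0.18) or P3 replicate 3 (0.19), and that of miR-362-3p without P3 replicate 3 (0.04). Leaving out P3 replicate 2 gave -0.82 for miR-362-3p, -0.99 for miR-532-3p and -0.80 for miR-532-5p.

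miR-532-5p had 328, 279 and 115 CPM in P9, against 402, 225 and 491 CPM in P3 (log2 fold change -0.59, SE 0.38, adjusted p = 0.479). P9 replicate 3 was below the other 8 libraries of the study, and P9 replicates 1 and 2 were inside the P3 range. miR-362-5p had 52.7, 43.9 and 15.9 CPM in P9, against 50.9, 36.3 and 57.9 CPM in P3 (-0.34, SE 0.40, adjusted p = 0.765), with the same library apart. miR-500-3p had 6.17, 3.56 and 1.22 CPM in P9, against 7.49, 3.06 and 9.93 CPM in P3 (-0.88, SE 0.54, adjusted p = 0.470). These groups overlapped.

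The miR-501-3p/miR-3560 pair was the 1 member whose P9 and P3 libraries did not overlap, which held for 25.3% of all miRNAs. It had 15.8, 12.5 and 14.4 CPM in P9, against 32.9, 19.7 and 25.8 CPM in P3. The log2 fold change was -0.80 (SE 0.35, adjusted p = 0.252), and -0.86 without P9 replicate 3 (adjusted p = 0.196). In P9 replicate 3, where the other members with at least 20 counts on average were at their lowest P9 level, this pair lay between the other P9 libraries and made up 9.20% of the cluster's reads, against 3.53% and 3.38% in P9 replicates 1 and 2.

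The blood rows summed to 69.7 to 308 CPM in P9, the epithelium rows to 20.3 to 34.7 CPM and the muscle rows to 151 to 534 CPM, and of the tested rows of these lists 0 passed against P3 with edgeR and 0 had an unadjusted p under 0.05. In P9 against FFSS 1 of the 4 tested blood rows was called, miR-142-5p, lower in P9 (-1.34, SE 0.48, adjusted p = 0.0473, edgeR). No tested epithelium or muscle row was called there. The part of these lists in the P9 values was not tested.

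The remaining arms at passage 9 overlapped with P3. miR-532-3p had 30.7, 21.0 and 7.22 CPM in P9, against 46.4, 12.5 and 37.1 CPM in P3 (-0.64, SE 0.48, adjusted p = 0.550). miR-362-3p had 8.67, 6.23 and 2.81 CPM in P9, against 9.87, 2.66 and 12.3 CPM in P3 (-0.44, SE 0.51, adjusted p = 0.745). miR-188-5p had 25, 6 and 0 reads in P9, against 16, 4 and 15 reads in P3 (-0.05, SE 0.86, adjusted p = 0.989); the 0 of P9 replicate 3 allows up to 0.367 CPM at 3 counts, a limit for counting error only. Neither arm ratio passed at passage 9. miR-362 had 6.04, 6.98 and 5.55 reads of the 5p arm per 3p read in P9, against 5.13, 13.3 and 4.69 in P3 (log2 difference -0.15, SE 0.42, adjusted p = 0.989, limma). miR-532 had 10.7, 13.3 and 15.8 in P9, against 8.66, 17.9 and 13.2 in P3 (0.04, SE 0.36, adjusted p = 0.989, limma). Of all 89 hairpins, 0 (0%) passed with limma, and 2 had an unadjusted p under 0.05.

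The rows left out by the filter had few reads: miR-500-5p 9, 5 and 15 reads in P9, FFSS and P3, miR-501-5p 9, 8 and 8, and miR-188-3p 1 in each group. They allow no comparison at this depth.

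**Figure D3:**
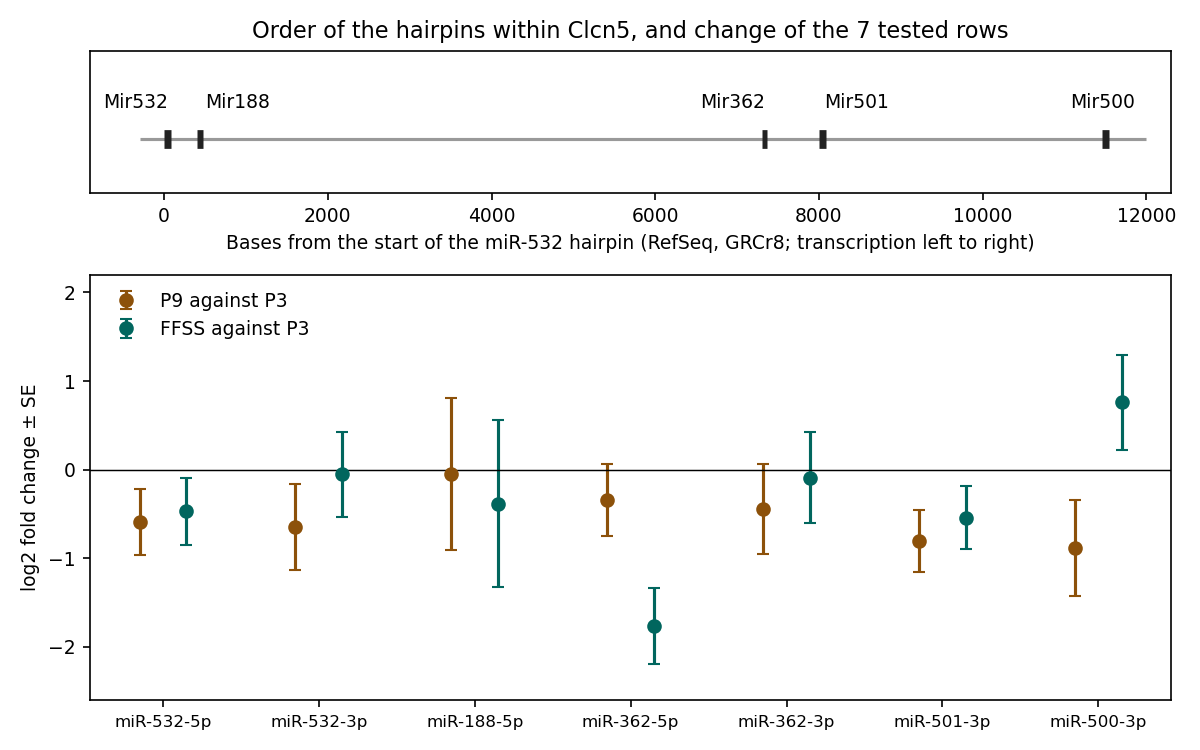
Upper panel: start of each hairpin in bases from the start of the miR-532 hairpin (RefSeq, GRCr8). Lower panel: log2 fold change ± SE of the 7 tested members in P9 against P3 and in FFSS against P3, in genomic order. The P9 values all lie below 0, between -0.88 and -0.05, while the FFSS values run from -1.76 for miR-362-5p to 0.76 for miR-500-3p.

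The effects of passage and of shear stress share their P3 controls, and the direct test of P9 against FFSS shows where they differ. Of the 7 members, 2 passed, 1 in each direction, beside 34.4% of all 439 miRNAs called, 22.6% higher and 11.8% lower in P9. The same 2 had an unadjusted p under 0.05, as did 46% of all miRNAs. miR-362-5p was higher in P9, at 37.5 ± 19.2 CPM in P9 and 14.4 ± 2.902 CPM in FFSS (SD, n = 3 each; log2 fold change 1.42, SE 0.42, adjusted p = 0.0205). P9 replicate 3, at 15.9 CPM, lay inside the FFSS range. Leaving out P9 replicate 1 ended this call (adjusted p = 0.0558), as did leaving out P9 replicate 2 (0.0603) or FFSS replicate 3 (0.0829).

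miR-500-3p was lower in P9, at 3.65 ± 2.48 CPM in P9 and 12.2 ± 4.95 CPM in FFSS (SD, n = 3 each; -1.64, SE 0.55, adjusted p = 0.0366). Each P9 library lay below each FFSS library, the 1 member without overlap, beside 42.8% of all miRNAs. It was called in 15 of 22 other settings, and leaving out P9 replicate 2 (adjusted p = 0.112), P9 replicate 3 (0.0670), FFSS replicate 1 (0.0901), FFSS replicate 3 (0.117) or P3 replicate 1 (0.0722) ended the call, as did the fit of only these groups (0.0592) and the replicate block (0.0563). With 10 reads in P9 replicate 3 and 36 to 66 in the FFSS libraries, counting limits the precision of this fold.

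The other 5 members did not pass, at 0.33 for miR-188-5p (SE 0.96, adjusted p = 0.800) and between -0.59 for miR-532-3p (SE 0.48, adjusted p = 0.353) and -0.12 for miR-532-5p (SE 0.37, adjusted p = 0.810) for the rest. The arm ratio of miR-362 was 2.62 ± 0.17 in P9 and 0.84 ± 0.26 in FFSS (SD, n = 3 each, log2; difference 1.78, SE 0.42, adjusted p = 0.0274, limma), without overlap. Of the 89 hairpins, 7.87% passed and 24 had an unadjusted p under 0.05 (limma). Leaving out P9 replicate 1 or 2 or any FFSS library ended the miR-362 call, with adjusted p between 0.0628 and 0.137, as did the fit of only these groups (0.0518).

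Reads of 1 member relative to another within a library are given as a description, since they reuse the members tested above. miR-362-5p had 0.0772, 0.0527 and 0.0343 reads per miR-532-5p read in FFSS, against 0.127, 0.161 and 0.118 in P3. All 3 FFSS libraries were below P3. miR-500-3p had 0.0567, 0.0249 and 0.0514 reads per miR-532-5p read in FFSS, against 0.0186, 0.0136 and 0.0202 in P3, and here all 3 FFSS libraries were above P3. miR-500-3p against its seed partner miR-501-3p gave 0.507, 0.595 and 0.930 in FFSS, against 0.227, 0.155 and 0.384 in P3, with no overlap either. At passage 9 miR-362-5p had 0.161, 0.157 and 0.138 reads per miR-532-5p read in P9, which overlapped P3. Of the 15 pairs of members compared, 7 did not overlap between FFSS and P3, and the 3 shown here are among those 7. Each of the 7 holds miR-362-5p or miR-500-3p, so they are not separate results. Between P9 and FFSS, 9 of the 15 pairs did not overlap. Of single miRNAs, 41.5% did not overlap between FFSS and P3 and 42.8% between P9 and FFSS. The share over pairs of other miRNAs was not worked out, so these counts do not set the cluster apart. Between P9 and P3, 1 of the 15 pairs did not overlap, miR-362-3p over miR-500-3p. Its values were 1.40, 1.75 and 2.30 in P9, against 1.32, 0.870 and 1.24 in P3.

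An exact permutation test, two-sided, cannot go below p = 0.10 with 3 against 3 libraries, so none of the 15 pairs of the 6 members averaging 20 or more counts could pass. The share of cluster reads made by miR-362-5p was 4.12 ± 1.43% in FFSS and 10.1 ± 1.69% in P3, and that of miR-500-3p 3.34 ± 1.20% in FFSS and 1.31 ± 0.27% in P3 (SD, n = 3 each). The share of miR-532-5p was 76.1 ± 3.93% in FFSS and 74.9 ± 2.16% in P3.

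**Figure D4:**
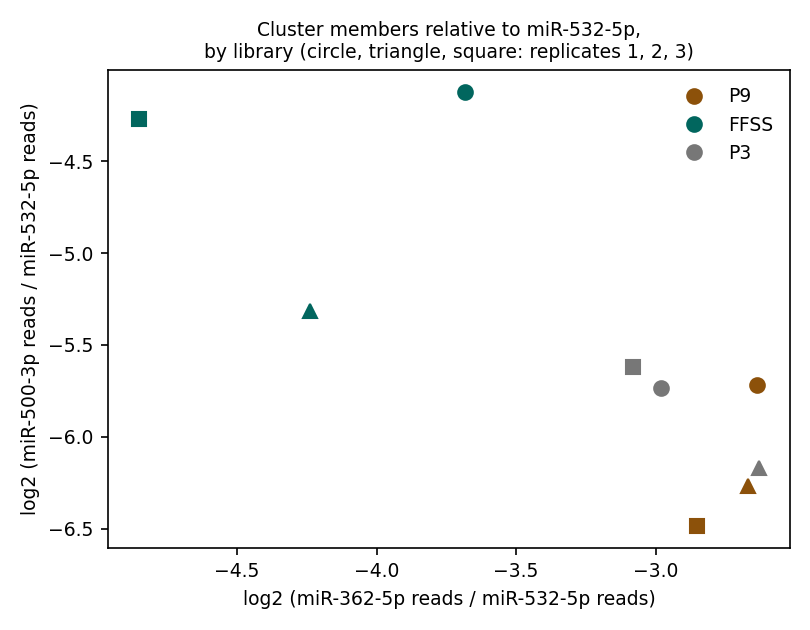
Log2 of miR-362-5p reads per miR-532-5p read (horizontal) against log2 of miR-500-3p reads per miR-532-5p read (vertical), 1 point per library. The FFSS libraries lie at -4.85 to -3.68 horizontally and at -5.32 to -4.12 vertically, left of and above the P9 and P3 libraries.

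How far the members moved together depended on the member. Over the 9 libraries, log2 CPM after TMM scaling (weighted trimmed-mean factors between libraries) correlated at r = 0.862 between miR-532-5p and miR-532-3p and at 0.890 between miR-532-3p and miR-362-3p. For miR-362-5p and miR-500-3p r was -0.20 over the 9 libraries and 0.674 once group means were taken out. The miR-501-3p/miR-3560 pair followed the rest least, with r from -0.242 to 0.298 against the other 6 members after group means were taken out. These values describe 9 points that share their libraries and depths.

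Among the non-members with a mean of at least 50 CPM, the 5 whose log2 CPM was most like that of miR-532-5p over the 9 libraries were miR-148b-3p (r = 0.837), miR-181b-5p (0.828), miR-27b-3p (0.826), miR-30e-5p (0.814) and miR-199a-3p (0.780), of 180 candidates. Their r with group means taken out was 0.800 to 0.893. P9 replicate 3 was the lowest library for each of the 5. miR-148b-3p, for example, stood at 965, 813 and 449 CPM in P9, 634, 1223 and 1025 CPM in FFSS and 1143, 830 and 1063 CPM in P3.

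miR-329-3p, which shares its seed with miR-362-3p, had 5.21, 17.9 and 18.5 CPM in FFSS, against 30.1, 44.3 and 24.9 CPM in P3. It fell in FFSS (log2 fold change -1.32, SE 0.43, adjusted p = 0.0458), with no overlap, and did not pass at passage 9 (0.09, SE 0.41, adjusted p = 0.956).

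A chosen list of other X chromosome miRNAs, 37 tested rows, serves as a background of the same chromosome. RefSeq placed 36 of the 37 on the X chromosome and held no mature entry for the remaining row. The list does not hold every X-linked row, as miR-3560 is not in it. Under shear stress 2 rose and 6 fell, beside 6.83% higher and 13.7% lower of all 439 miRNAs, with a median log2 fold change of -0.11 beside 0.02. The 4 with the smallest p all fell: miR-221-5p (-2.01), miR-374-3p (-1.67), miR-222-3p (-0.92) and miR-450a-5p (-1.13), with adjusted p of 0.00636, 0.00944, 0.0232 and 0.0250. At passage 9, 6 rose and 1 fell, beside 3.87% higher and 3.42% lower of all miRNAs, with a median of 0.24 beside 0.06. The 6 that rose include both arms of the miR-325 hairpin and both arms of the miR-384 hairpin, so they are not 6 separate hairpins. Of the 4 with the smallest p, miR-325-5p rose (3.28, adjusted p = 5.02e-04), with 8.88 ± 2.30 CPM in P9 and 0.926 ± 0.092 CPM in P3 (SD, n = 3 each). miR-384-3p (3.77, adjusted p = 0.00454) and miR-325-3p (3.56, adjusted p = 0.00720) rose as well, and miR-452-5p fell (-1.91, adjusted p = 0.00475). The 2 risers came from near the limit of detection. miR-384-3p had means of 3.43 CPM in P9 and 0.255 CPM in P3, and miR-325-3p 3.90 and 0.329 CPM. In the P3 libraries 1 read was 0.113 to 0.133 CPM, so counting limits the precision of both folds. The direct test of P9 against FFSS found 13 of the 37 higher and 4 lower in P9, beside 22.6% and 11.8% of all miRNAs. The median was 0.64 for the list, beside 0.02 over all miRNAs and -0.26 for the 7 cluster members. A difference between the cluster and the list was not tested.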

How the data were processed

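Per the file headers, the deposited table gave a read count and a TPM value for 726 miRNA rows in each of 9 libraries, made by the authors from single-end small RNA reads. TPM equalled the count scaled to the library's total (CPM), with a largest difference of 4.85e-05. Per the submitters' processing notes, Bowtie and the build Rnor_6.0 were used; of the counting program, its use of strand and the miRNA release, nothing is given in the sources used here.

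Counts were tested with edgeR 4.0.16 in R 4.3.3: filterByExpr (439 rows kept), TMM, 1 model of all 9 libraries, robust quasi-likelihood test, called at an adjusted p under 0.05. Arm ratios, log2 of 5p over 3p counts with 0.5 added, were tested with limma 3.58.1. DESeq2 1.42.0 and the fits in the closing section were alternatives. The edgeR and limma steps were tested on simulated data.

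Members and lists (other X chromosome, cartilage, blood, epithelium and muscle miRNAs) were chosen with earlier results of these data known. The text names the members and the 4 rows of the other X chromosome list with the smallest p per comparison with P3. It also names seed sharers that were tested and the 5 rows most correlated with miR-532-5p. The rows miR-142-5p, miR-200b-3p and miR-3560 were named after their values were seen. Sequences are from RefSeq (GRCr8).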

Additional observations from a re-analysis of the deposited data

Results flagged for a closer look

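A difference between the effects of passage and of shear stress, both taken against P3, was found for 3 results by the direct test of P9 against FFSS. miR-362-5p was higher in P9 by 1.42 on the log2 scale (adjusted p = 0.0205, edgeR). miR-500-3p had a log2 fold change of -1.64, lower in P9 (adjusted p = 0.0366, edgeR). The log2 arm ratio of miR-362 was higher in P9 by 1.78 (adjusted p = 0.0274, limma). This ratio uses the same reads as the fold change of miR-362-5p, so the 3 results are not independent. Groups of 3 are too small for a test of single outlying libraries.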

How the results depend on the processing

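In 23 other settings miR-362-5p stayed lower in FFSS than in P3 (log2 fold change -2.05 to -1.25) and was called in 22; its arm ratio stayed lower in 15 (-2.21 to -1.45) and was called in 13. No member was called in P9 against P3 under any setting run. Leaving out 1 library gave 0 to 0 members called in P9 against P3, 0 to 1 in FFSS against P3 and 0 to 2 in P9 against FFSS, and for arm ratios 0 to 0, 0 to 1 and 0 to 1. In P9 against FFSS, 1 member was called with a mean of at least 50 counts, with the fit of only the 2 groups compared and with the replicate block; miR-500-3p was not tested under that filter and did not pass in the other 2. With a mean of at least 100 counts per arm, 0 member arm ratios were called in FFSS against P3 and in P9 against FFSS, since the miR-362 hairpin was then not tested, and the fit of only 2 groups gave 0 in P9 against FFSS. The labels do not tell if same-numbered libraries are paired. Deviations of same-numbered libraries from their group means correlated at -0.466 to 0.120, which cannot settle it. The replicate block changed 1 call, that of miR-500-3p. Thinning to the smallest total and dropping the miR-3560 row were chosen after seeing the data. Against TMM, upper-quartile factors and library size shifted the median of all miRNAs by -0.11 and -0.10 in P9 against FFSS.

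Signs turned for values that had not passed. Leaving out 1 library gave, in P9 against P3, -1.70 to 0.53 for miR-188-5p, -0.82 to 0.040 for miR-362-3p and -0.58 to 0.011 for miR-362-5p, and for the arm ratios -0.43 to 0.33 for miR-362 and -0.23 to 0.29 for miR-532. In FFSS against P3 it gave -0.55 to 0.32 for miR-362-3p and -0.48 to 0.12 for miR-532-3p. In P9 against FFSS it gave -1.20 to 0.99 for miR-188-5p, -0.54 to 0.025 for miR-362-3p, -0.43 to 0.23 for miR-501-3p and -0.22 to 0.26 for miR-532-5p. In FFSS against P3, miR-362-3p turned to 0.12 with limma-voom and to 0.14 and 0.0095 on log2(TPM + 1) and log2(TPM + 10). There miR-532-3p turned to 0.011 with a mean of at least 50 counts, 0.086 with limma-voom, 0.12 and 0.056 on the same log2 scales and 0.0078 with the replicate block. In P9 against FFSS, miR-188-5p turned to -0.75 with limma-voom, -0.0031 on log2(TPM + 1) and -0.0080 with the block, and miR-532-5p to 0.012 with no filter and 0.048 when thinned. The cause was not tested. Depth limits miR-188-5p, miR-500-3p and the 3p arm of miR-362, with as few as 0, 10 and 20 reads in a library.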
